A study of Mus musculus with 78 samples.

Results

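Arteries from mice that carried both exposures of the study, intermittent fasting and carotid stenosis, were compared with arteries from mice that carried neither. The compared libraries were all 20 labelled stenosis with fasting (BCAS IF) and all 20 labelled sham with free feeding (sham AL), which is 40 of the 78 libraries of the series, with 4 of each on days 1, 7, 14, 21 and 30 after surgery. All animals were wild-type male C57Bl6 mice, and cerebral artery was the tissue named. Fasting or free (ad libitum) feeding ran for 3 months, then came either sham surgery or bilateral carotid artery stenosis (BCAS), a lasting narrowing of the common carotids that reduces cerebral perfusion. The 19 BCAS AL and 19 sham IF libraries carried 1 exposure each and served to split the combined difference. Ages, the fasting schedule, the hour of collection and whether animals were pooled are not given in the sources, and day 7 is named in the group labels alone. Nothing besides separate titles says that libraries came from separate animals, so p-values measure the spread between libraries, which may be technical.

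Cerebral arteries consist of an endothelial lining, contractile smooth muscle and an outer fibroblast layer, and they set how much blood reaches the brain. When flow falls, arteries are known to remodel through Notch, VEGF and Wnt signalling in endothelium and through matrix turnover. Feeding times are a strong cue for clocks in peripheral tissues, in which the activators Arntl, Clock and Npas2 act on E-box elements, the Per and Cry repressors close that loop, and the activators Dbp, Tef and Hlf compete with the repressor Nfil3 at D-box elements. Heat shock chaperones are controlled by Hsf1 and follow body temperature and protein stress, and Cirbp and Rbm3 encode RNA-binding proteins induced by mild cold.

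Depth ran from 14601572 to 23298025 fragments per library in sham AL and from 15929691 to 23497139 in BCAS IF. Smooth muscle and endothelial markers were abundant in both groups. Acta2, the smooth muscle actin, had a median of 5010 FPKM (fragments per kilobase of gene, scaled to a total per library) in sham AL and 4690 FPKM in BCAS IF. A median under 1 FPKM was found for 8 of 9 T and B cell markers and 5 of 10 neuronal markers. Other non-vascular markers were high. The mean level of the 5 leptomeninges markers had a median of 7.22 on the log2(FPKM + 1) scale in sham AL and 7.09 in BCAS IF. For smooth muscle these medians were 7.11 and 7.12, for endothelium 4.87 and 4.94, and for astrocytes 4.22 and 4.17. Some libraries stood apart. Sham AL day 7 replicates 2 and 4 (with BCAS AL day 1 replicate 2) held over 0.2% of fragments in genes under 300 bases, against 0.0563% to 0.1058% elsewhere. BCAS IF day 21 replicate 4 had a mean red blood cell marker level of 7.57 on the log2(FPKM + 1) scale, where the median of BCAS IF was 3.29. In bulk tissue, fewer cells of a type and less RNA per cell cannot be told apart.

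Averaged over the 5 days, 5291 of 15707 genes tested (33.7%) differed between BCAS IF and sham AL at an adjusted p under 0.05, 2705 of them (17.2%) higher and 2586 (16.5%) lower. Most of these differences were small. Past 1.5-fold were 97 rises (0.618%) and 62 falls (0.395%). The test was limma on log2(FPKM + 1) with Benjamini-Hochberg adjustment over all genes tested, which also gives every adjusted p and standard error below. On this scale the change of a weakly expressed gene is understated.

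The combined difference was written as the sum of 2 averages, the stenosis effect over both diets and the fasting effect over both operations. The sum of both equals the BCAS IF minus sham AL difference, and the estimates of both were nearly independent (correlation of -0.03). The fasting effect passed for 5984 genes (38.1%), 2959 higher (18.8%) and 3025 lower (19.3%), and the stenosis effect for 556 (3.54%), 373 higher (2.37%) and 183 lower (1.17%). Both passed for 306 genes (1.95%), stenosis alone for 250 (1.59%) and fasting alone for 5678 (36.1%). In 245 of the 306 (1.56% of all tested) both effects had the same sign, and these are called added genes, 162 higher (1.03%) and 83 lower (0.528%). In 61 (0.388%) the signs were opposite, and these are called opposed genes. The median stenosis and fasting effects were 0.16 and 0.17 among the added genes that rose and -0.12 and -0.16 among those that fell, on the log2 scale.

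**Figure D1:**
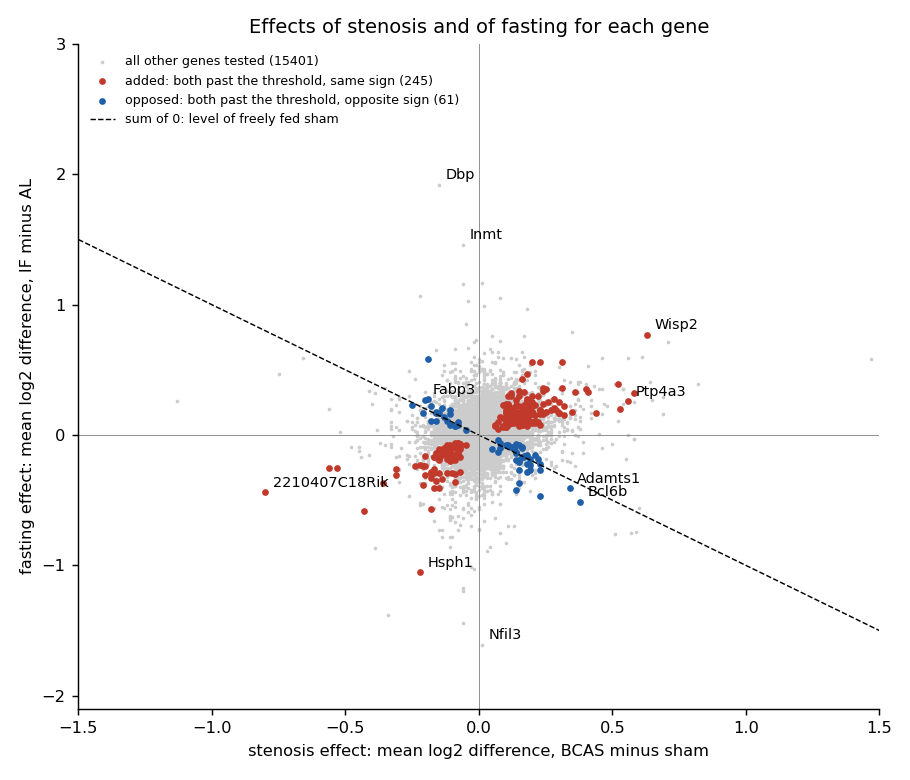
Each point is 1 of 15707 genes, with the mean log2 difference of BCAS minus sham on the x axis and of IF minus AL on the y axis. The 245 added genes (red) lie in the upper right and lower left, the 61 opposed genes (blue) lie near the dashed line where both effects cancel, and the largest fasting effects (Dbp, Inmt, Nfil3) sit close to a stenosis effect of 0.

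Wisp2, which encodes a matricellular protein of the CCN family, ran from 6.30 to 21.0 FPKM in sham AL with a median of 14.3, and from 22.5 to 69.2 FPKM in BCAS IF with a median of 39.8. All 20 BCAS IF libraries were above all 20 sham AL libraries. The difference was 1.40 ± 0.11 (log2, SE) or 2.64-fold (adjusted p = 1.13e-15), made of a stenosis effect of 0.63 ± 0.08 and a fasting effect of 0.77 ± 0.08. Either exposure alone gave levels in between, at 26.1 ± 6.44 FPKM (SD, n = 19) in sham IF and 23.5 ± 6.69 FPKM (n = 19) in BCAS AL. Wisp2 (ENSMUSG00000027656) lies on chromosome 2 at 163820861 to 163833146 (GRCm38, plus strand). Its difference passed on each of the 5 days, but on day 21 it was lost without sham AL replicate 4 of that day (1.03, adjusted p = 0.0555).

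Ptp4a3, which encodes a tyrosine phosphatase found in endothelium, spanned 10.3 to 21.3 FPKM in sham AL (median 17.6) and 22.4 to 45.3 FPKM in BCAS IF (median 30.3), again without overlap. Its level was higher by 0.82 ± 0.06 (1.76-fold, adjusted p = 6.02e-17), and here stenosis was the larger share, with 0.56 ± 0.04 against 0.26 ± 0.04 for fasting. Crispld2, which encodes a secreted protein of the CAP family, showed the same order. Its range was 64.1 to 89.1 FPKM in sham AL and 81.2 to 179 FPKM in BCAS IF, which overlapped. It rose by 0.73 ± 0.05 (1.66-fold, adjusted p = 3.4e-17), with 0.53 ± 0.04 from stenosis and 0.20 ± 0.04 from fasting, and passed on every day. Ptp4a3 lies on chromosome 15 and Crispld2 on chromosome 8.

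Pgf, the placental growth factor gene whose product binds the receptor encoded by Flt1, ran from 8.49 to 15.7 FPKM in sham AL and from 15.1 to 22.1 FPKM in BCAS IF. The ranges met only at their ends. The difference of 0.60 ± 0.05 (adjusted p = 6.28e-14) passed on all 5 days and held a stenosis effect of 0.24 ± 0.04 and a fasting effect of 0.36 ± 0.04. Further added rises were those of the retinoic acid hydroxylase gene Cyp26b1 (0.75 ± 0.14), the gastrokine family gene Gkn3 (0.67 ± 0.12), the procollagen protease gene Adamts14 (0.55 ± 0.09) and Hspb6, a small heat shock protein gene of muscle (0.55 ± 0.08). The stenosis effects of Cyp26b1 and Gkn3 did not pass without day 7 (adjusted p = 0.274 and 0.353), that of Gkn3 was also lost in 7 other alternatives, and the fasting effect of Cyp26b1 did not pass without day 21 (adjusted p = 0.113).

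Among the added falls, 2210407C18Rik had the largest stenosis effect. Its levels were low and ran from 1.05 to 7.99 FPKM in sham AL (median 4.00) and from 0.0335 to 3.62 FPKM in BCAS IF (median 0.731). The upper BCAS IF libraries lay within the sham AL range. The difference was -1.24 ± 0.13 (adjusted p = 9.66e-12), with -0.80 ± 0.09 from stenosis and -0.44 ± 0.09 from fasting. Wtip, which encodes a LIM domain protein, was abundant. It fell by 0.73 ± 0.08 from a median of 152 FPKM (65.8 to 195) to 92.6 FPKM (52.1 to 132), with equal parts of -0.36 ± 0.06 and -0.37 ± 0.06.

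The other added falls included Baiap2l2, which encodes a membrane-bending adaptor (-0.82 ± 0.09), Cck, the cholecystokinin gene (-0.79 ± 0.12), Grip2, a receptor scaffold gene (-0.62 ± 0.09), Asb11, which encodes a ubiquitin ligase adaptor (-0.57 ± 0.09), and Kcna5, the gene of a voltage-gated potassium channel of vascular muscle (-0.48 ± 0.09). Without day 7 the stenosis effects of Grip2 and Kcna5 each had an adjusted p of 0.0596, and without day 30 that of Kcna5 had 0.138. Cck lost its fasting effect without day 1, 7 or 14 (adjusted p = 0.0527 to 0.0903). Hsph1, a chaperone gene, was also added, with -0.22 ± 0.06 from stenosis and -1.05 ± 0.06 from fasting, but the stenosis effect was lost without day 7 (adjusted p = 0.431), day 30 (adjusted p = 0.24) or day 21 (adjusted p = 0.0781).

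**Figure D2:**
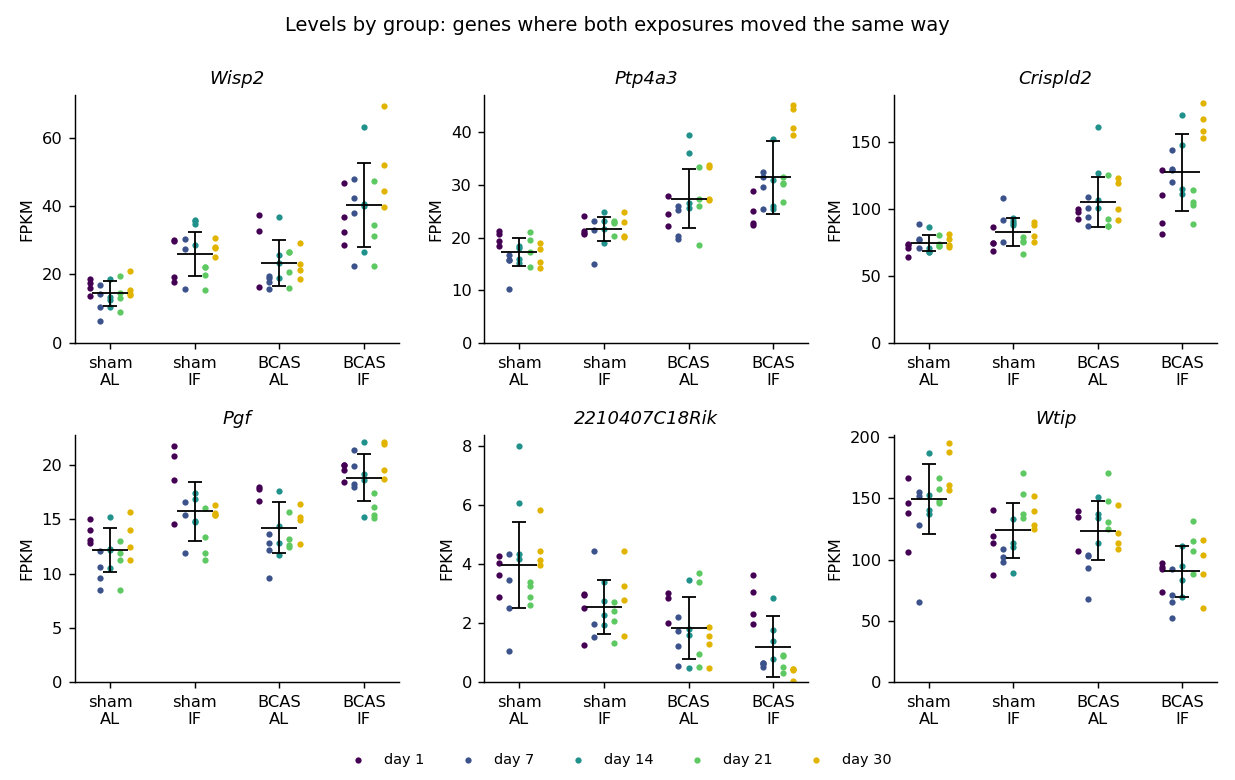
Each point is the FPKM of 1 library, by group on the x axis and coloured by day, and black bars are the mean ± SD of a group (n = 20, 19, 19 and 20 from left to right). For Wisp2, Ptp4a3, Crispld2 and Pgf the mean of BCAS IF was the highest of the 4 groups, and for 2210407C18Rik and Wtip it was the lowest.

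Whether the exposures added up on the log2 scale was tested by their interaction. None of the 245 added genes passed, and the number with an unadjusted p under 0.05 was 6 among the rises and 4 among the falls. The departure from adding was -0.07 ± 0.16 for Wisp2, -0.12 ± 0.09 for Ptp4a3, 0.11 ± 0.08 for Crispld2 and 0.04 ± 0.08 for Pgf. These standard errors are wider than those of the effects, which were 0.08 for both effects of Wisp2. The median effects of the added rises were 0.16 and 0.17, so an interaction of that size could be missed. A gene that did not pass is not shown to add. Over all genes, 2 of 15707 (0.0127%) passed and 629 (4.0%) had an unadjusted p under 0.05. The count of added genes rested on the choice of days. It was 84 without day 7, 111 without day 30 and 422 without day 1, and 77 and 206 of the 245 remained without day 7 and without day 1.

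Of the 61 opposed genes, 39 (0.248% of all tested) had a higher level with stenosis and a lower one with fasting, and 22 (0.14%) had the reverse. Bcl6b, which encodes a transcriptional repressor of endothelium, had a median of 1.72 FPKM in sham AL, 3.27 FPKM in BCAS AL, 1.06 FPKM in sham IF and 1.66 FPKM in BCAS IF. The stenosis effect was 0.38 ± 0.08 (adjusted p = 0.000653) and the fasting effect -0.51 ± 0.08 (adjusted p = 1.33e-07). BCAS IF ran from 0.690 to 3.72 FPKM and sham AL from 0.919 to 6.65 FPKM, and the difference of -0.13 ± 0.10 did not pass (95% interval -0.34 to 0.08).

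The secreted protease gene Adamts1 ran from 13.3 to 53.4 FPKM in sham AL and from 13.4 to 37.1 FPKM in BCAS IF. Its effects were 0.34 ± 0.07 and -0.41 ± 0.07, and their sum was -0.07 ± 0.10 (95% interval -0.27 to 0.12). The Notch ligand gene Dll4 gave 5.09 to 9.22 FPKM in sham AL and 4.93 to 10.4 FPKM in BCAS IF. The stenosis effect was 0.18 ± 0.05 (adjusted p = 0.0139) and the fasting effect -0.22 ± 0.05. Their sum was -0.04 ± 0.06, with an interval of -0.17 to 0.09. Dll1 and Jag1, which encode further Notch ligands, were opposed too. The effects of Jag1 were near the threshold, at 0.12 (adjusted p = 0.0262) and -0.09 (adjusted p = 0.0415). Dll1 did not come back to the sham AL level and was lower by 0.24 ± 0.09 (adjusted p = 0.0269), a call that was lost without day 7, 14, 21 or 30 (adjusted p = 0.0558 to 0.103). The stenosis effect of Dll4 was lost without day 7, day 14 or day 30 (adjusted p = 0.0541 to 0.0899), and that of Adamts1 without day 14 (adjusted p = 0.0557).

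Col4a1 and Col4a2, which encode chains of basement membrane collagen IV, were opposed. Col4a1 stood at a median of 68.4 FPKM in sham AL (52.2 to 85.3), 78.1 FPKM in BCAS AL (62.2 to 96.9), 60.2 FPKM in sham IF (43.8 to 65.1) and 68.6 FPKM in BCAS IF (50.2 to 78.2). BCAS IF and sham AL covered much the same range. The stenosis effect was 0.19 ± 0.03, the fasting effect -0.23 ± 0.03 and the sum -0.04 ± 0.04 (95% interval -0.13 to 0.05). Col4a2, which shares a divergent start region with Col4a1 on chromosome 8, gave 0.16 ± 0.04 and -0.10 ± 0.04 (adjusted p = 0.0083 and 0.0397). With each library centred on its median, and likewise without day 1, only 1 of 13 basement membrane genes was opposed. The remaining 11 of 13 basement membrane genes were not opposed, and Lama5, a laminin chain gene, was added (0.25 ± 0.04).

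Cd93, which encodes an endothelial surface glycoprotein, had effects of 0.22 ± 0.04 and -0.18 ± 0.04 and a sum of 0.04 ± 0.05. The Wnt modulator gene Dkk2 had 0.23 ± 0.05 and -0.27 ± 0.05, and the membrane protein gene Mall 0.23 ± 0.07 and -0.22 ± 0.07. S1pr1, the gene of a sphingosine 1-phosphate receptor of endothelium, gave 0.19 ± 0.06 and -0.27 ± 0.06, and Vegfc, the gene of a lymphangiogenic growth factor, 0.18 ± 0.05 and -0.28 ± 0.05. The stenosis effects of S1pr1 and Vegfc were close to the threshold (adjusted p = 0.036 and 0.0386). The effect of Vegfc was lost without day 7 or day 14 (adjusted p = 0.305 and 0.276) and with the red blood cell score as a covariate (adjusted p = 0.13), and that of Mall without day 1 (adjusted p = 0.277).

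In the other direction, Fabp3, which encodes a fatty acid binding protein of muscle, ran from 11.8 to 24.5 FPKM in sham AL and from 14.8 to 28.4 FPKM in BCAS IF. Its median was 22.8 FPKM in sham IF and 17.6 FPKM in BCAS AL. Stenosis gave -0.20 ± 0.05 and fasting 0.27 ± 0.05, and the sum of 0.07 ± 0.07 did not pass. The stenosis effect of Fabp3 was lost without day 1 (adjusted p = 0.129). Hlf, a D-box activator, gave -0.16 ± 0.04 and 0.17 ± 0.04, the class I histocompatibility gene H2-Q1 -0.18 ± 0.05 and 0.22 ± 0.05, the inhibitor of DNA binding gene Id2 -0.16 ± 0.05 and 0.18 ± 0.05, and Asb10, a ubiquitin ligase adaptor gene, -0.25 ± 0.06 and 0.23 ± 0.06. Plk5, a polo-like kinase gene, kept a difference of 0.38 ± 0.06, with a fasting effect of 0.58 ± 0.05 and a stenosis effect of -0.19 ± 0.05. The junction gene Ajap1 had -0.19 ± 0.05 and 0.28 ± 0.05, and Gm45716, a predicted gene, -0.21 ± 0.06 and 0.17 ± 0.06. The stenosis effect of Asb10 was lost without day 1 (adjusted p = 0.0776).

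**Figure D3:**
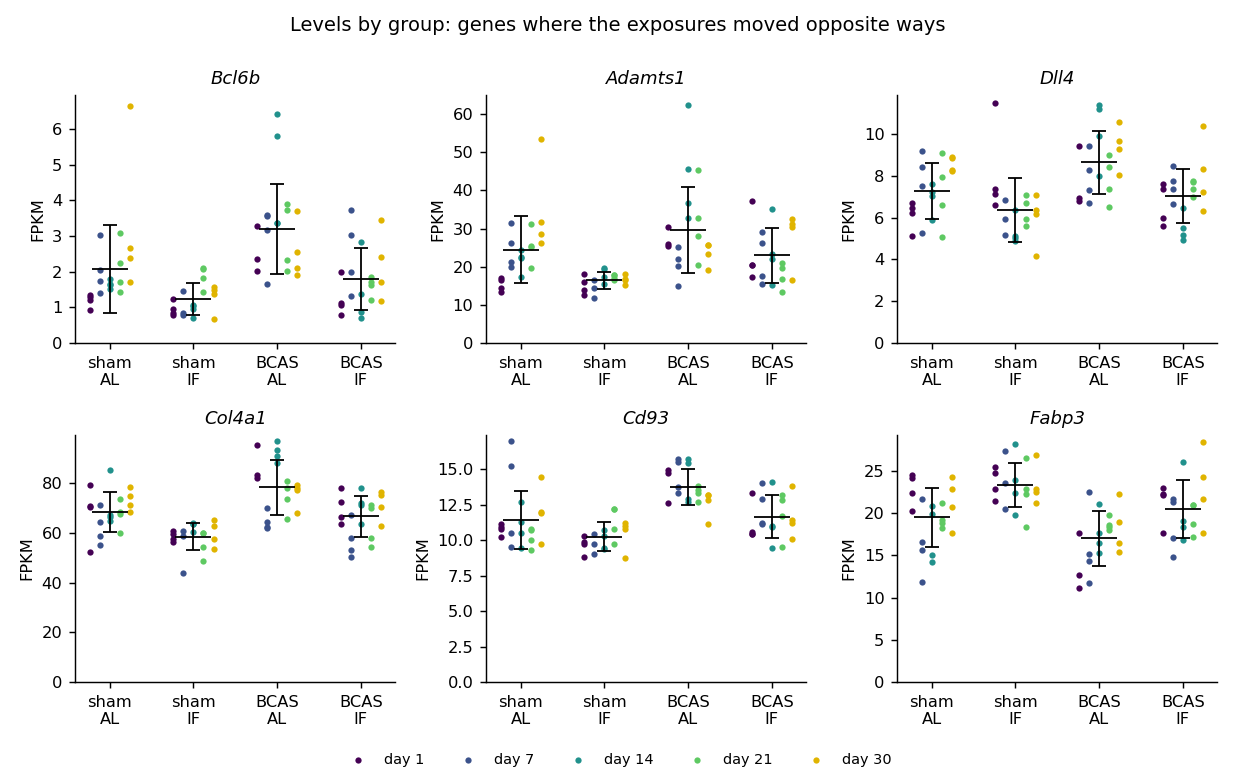
Points are FPKM per library by group, coloured by day, with bars of mean ± SD (n = 20, 19, 19 and 20 from left to right). For Bcl6b, Adamts1, Dll4, Col4a1 and Cd93 the BCAS AL mean was the highest and the sham IF mean the lowest, and for Fabp3 this order was turned, with BCAS IF next to sham AL in every panel.

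A gene was called returned where its stenosis or fasting effect passed and the 95% interval of the BCAS IF minus sham AL difference lay wholly within -0.2 to 0.2 on the log2 scale. Of the 61 opposed genes 47 met this (0.299% of all tested), and 5 of the 61 (0.0318%) still differed from sham AL at an adjusted p under 0.05. The signs that define opposed genes draw their sum towards 0, so this count is a description. In all 2139 genes (13.6%) were returned, but 2032 of them had a fasting effect alone, with a median size of 0.09, and 53 a stenosis effect alone, with a median size of 0.10. Of all 15707 genes, 7559 (48.1%) had an interval within the margin, against 19.2% of the genes past in stenosis. With a margin of 0.1 the returned genes numbered 154 and the opposed ones among them 13, and with a margin of 0.3 the returned genes were 4137. Without day 14 only 23 genes were opposed.

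Clock genes differed widely between the groups, and their fasting effects were the larger ones. Of 20 clock genes 13 were higher and 5 lower, with a median of 0.47 (log2), against 0.007 over all genes tested. Of all genes 17.2% were higher and 16.5% lower. Dbp ran from 3.33 to 33.7 FPKM in sham AL (median 8.87) and from 22.1 to 54.9 FPKM in BCAS IF (median 37.1). Overlap came from sham AL libraries of day 1, where the 4 values were 13.2, 22.0, 27.3 and 33.7 FPKM. The mean difference was 1.77 ± 0.12 or 3.41-fold (adjusted p = 3.35e-19), with a fasting effect of 1.92 ± 0.08 and a stenosis effect of -0.15 that did not pass (adjusted p = 0.354). Per3, a period family repressor, ran from 2.18 to 6.20 FPKM and from 6.43 to 11.3 FPKM without overlap (1.18 ± 0.05, adjusted p = 1.61e-27).

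Further rises were those of Ciart, a repressor of the Clock and Arntl pair (1.1 ± 0.13), Per2 (1.01 ± 0.08), Tef (0.99 ± 0.05), Nr1d2, which encodes a nuclear receptor repressor (0.80 ± 0.06), Usp2, a deubiquitinase gene (0.69 ± 0.06), Per1 (0.67 ± 0.10) and Cry2 (0.53 ± 0.04). The falls were those of Nfil3 (-1.59 ± 0.08), Arntl (-1.23 ± 0.07), Npas2 (-1.05 ± 0.07), Clock (-0.36 ± 0.04) and Rora (-0.16 ± 0.03). Nfil3 ran from 6.92 to 23.7 FPKM in sham AL and from 2.53 to 6.48 FPKM in BCAS IF, and Arntl from 2.06 to 5.32 and from 0.419 to 2.03 FPKM, both without overlap. None of the 20 rose with stenosis and 2 fell with it, Hlf and Rora, whereas 15 rose and 5 fell with fasting. With stenosis 2.37% of all genes rose and 1.17% fell, and with fasting 18.8% rose and 19.3% fell. The hour of collection was not given, so its part in these differences was not tested.

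The 250 bases before the start of Ciart and of Per3 are shown because they hold the E-box CACGTG and the D-box TTATGTAA (both strands searched) more than once. Sequences are RefSeq windows on GRCm38.p6, written 5′ to 3′ on the strand of the gene, with the motif in capitals. Ciart lies at chr3:95882229-95882478 on the minus strand, and its 3 E-boxes begin 116, 58 and 44 bases before the start.
Ciart: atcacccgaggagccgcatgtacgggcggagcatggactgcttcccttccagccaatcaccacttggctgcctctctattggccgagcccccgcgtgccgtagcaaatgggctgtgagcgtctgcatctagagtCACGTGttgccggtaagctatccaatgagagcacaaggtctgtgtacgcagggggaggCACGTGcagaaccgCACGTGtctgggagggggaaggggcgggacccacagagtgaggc
Per3 lies at chr4:151044666-151044915 on the minus strand, and its 2 D-boxes begin 205 and 158 bases before the start.
Per3: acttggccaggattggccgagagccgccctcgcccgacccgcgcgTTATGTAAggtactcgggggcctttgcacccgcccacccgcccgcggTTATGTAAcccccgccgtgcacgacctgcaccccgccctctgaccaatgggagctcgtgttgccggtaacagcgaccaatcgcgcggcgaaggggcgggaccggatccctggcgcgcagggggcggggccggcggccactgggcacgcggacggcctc
The E-box was present in 1978 of 32851 windows (6.02%) and the D-box in 269 (0.819%). Of 20 clock genes 17 had a window, and 5 of these (Tef, Per1, Cry1, Ciart and Bhlhe41) held the E-box and 1 (Per3) the D-box in any of its windows. These counts are per gene and the shares before them per window, so they cannot be set against each other. A match describes the letters and is not evidence of binding.

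All 19 genes of the heat shock chaperone list, Hsf1 among them, fell (median -0.51), and 18 fell without day 1 or without day 7. Of all genes 16.5% fell in the mean over days. All 19 also fell with fasting, where 19.3% of all genes did. With stenosis 1 of the 19 (Hsph1) fell, where 1.17% of all genes did. Outside the list, the small heat shock protein gene Hspb6 rose (0.55 ± 0.08). Hsph1, the Hsp110 gene, ran from 20.4 to 58.8 FPKM in sham AL and from 8.37 to 18.6 FPKM in BCAS IF, without overlap (-1.27 ± 0.08, adjusted p = 5.83e-19). The inducible Hsp70 gene Hspa1b was widely spread in sham AL, from 6.98 to 148 FPKM, and narrow in BCAS IF, from 6.11 to 12.6 FPKM. It fell by 1.5 ± 0.18, and its near copy Hspa1a fell by 1.25 ± 0.16. Reads shared by that pair may have been divided between them, so their single values are uncertain. Dnaja1 (-0.97 ± 0.08), an Hsp40 gene, and Hspa8 (-0.81 ± 0.06), the constitutive Hsp70 gene, followed. The smallest falls were those of Cryab (-0.13 ± 0.05) and Hsf1 (-0.20 ± 0.04).

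The chaperonin gene Hspe1 shows the element that Hsf1 is known to bind, GAANNTTCNNGAA, in overlapping copies (both strands searched) and is printed for that reason. The window lies at chr1:55087898-55088147 (GRCm38.p6, plus strand, RefSeq), with the element in capitals.
Hspe1: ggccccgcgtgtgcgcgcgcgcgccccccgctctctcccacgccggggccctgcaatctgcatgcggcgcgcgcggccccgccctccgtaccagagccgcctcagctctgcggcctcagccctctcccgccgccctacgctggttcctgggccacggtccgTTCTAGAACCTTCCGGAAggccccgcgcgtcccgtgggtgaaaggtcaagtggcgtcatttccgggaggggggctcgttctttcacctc
That element was in 153 of 32851 windows (0.466%). Hspe1 fell by 0.27 ± 0.06 and its neighbour Hspd1 by 0.41 ± 0.04. Fewer than 80% of the 19 chaperone genes had a window, so a count over the list is void and no share is given.

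The cold-inducible genes went the other way. Cirbp ran from 15.4 to 35.6 FPKM in sham AL and from 41.7 to 85.6 FPKM in BCAS IF, without overlap, and rose by 1.15 ± 0.09 (2.22-fold, adjusted p = 1.92e-15). It passed on every day. Rbm3 rose by 0.57 ± 0.06 in the mean and passed on days 1, 7 and 14, but not on days 21 and 30, where its differences were 0.12 ± 0.13 and 0.02 ± 0.13. On day 1 the 4 sham AL values were 7.70, 10.1, 10.2 and 11.1 FPKM and the 4 BCAS IF values 21.9, 23.4, 24.9 and 26.1 FPKM. On day 30 the values were 13.1, 14.3, 14.3 and 15.3 FPKM against 12.6, 13.1, 15.2 and 17.1 FPKM, and the groups overlapped.

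Genes of the endoplasmic reticulum stress response fell in 14 of 15 cases (median -0.40), and 14 fell with fasting. Of all genes 16.5% fell in the mean over days and 19.3% fell with fasting. With stenosis none of the 15 passed, where 3.54% of all genes did. By day, 6 fell on day 1, 12 on day 7 (when 1 rose), 13 on day 14, 1 on day 21 and 2 on day 30. Of all genes 1.84%, 8.64%, 2.9%, 1.03% and 5.93% fell on these days, in that order. Sdf2l1, a chaperone cofactor gene, fell by 0.82 ± 0.10, the chaperone gene Hspa5 by 0.61 ± 0.10, Creld2 by 0.58 ± 0.08 and the transcription factor gene Xbp1 by 0.43 ± 0.05. Ddit3, which encodes the CHOP factor, did not pass (0.10 ± 0.06). Genes of cholesterol synthesis and uptake fell in 12 of 20 cases (median -0.22), led by Cyp51, the lanosterol demethylase gene (-0.48 ± 0.06), Idi1 (-0.35 ± 0.10), Hmgcs1 (-0.29 ± 0.04) and Srebf2, the regulator of the pathway (-0.29 ± 0.03). Srebf2 was added, with -0.10 and -0.19, but no gene of this list was added without day 7. By day, 13 fell on day 7, when 8.64% of all genes fell, 11 on day 30, when 5.93% did, and 0 on day 21, when 1.03% did.

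Of 20 genes of lipid handling 9 rose and 1 fell. The fall was that of the lipid droplet gene Plin2 (-0.13 ± 0.03). The rises were led by Angptl4, which encodes an inhibitor of lipoprotein lipase (0.53 ± 0.16), Fabp4, a fatty acid carrier gene of endothelium (0.43 ± 0.07), Pdk4, which encodes a kinase that restrains glucose oxidation (0.41 ± 0.09), Acaa2, a fatty acid oxidation thiolase gene (0.39 ± 0.04), and the uncoupling protein gene Ucp2 (0.38 ± 0.05). Fabp4 was added (0.25 and 0.18), but no gene of this list was added without day 7. Without day 7, 6 of the 20 rose, and without the libraries rich in short genes 9 rose and 3 fell. Of 15 glucocorticoid-responsive genes 8 rose and 3 fell, among them Arrdc2 (0.50 ± 0.07), Tsc22d3 (0.42 ± 0.08) and Fkbp5 (0.35 ± 0.11) as rises and the cell cycle inhibitor gene Cdkn1a as a fall (-0.72 ± 0.09). Over all genes 17.2% rose and 16.5% fell, and without day 7, 4 of the 15 rose and 3 fell. Of 14 antioxidant genes 6 rose and none fell, led by Osgin1 (0.47 ± 0.07) and Nqo1 (0.31 ± 0.06). Txnip, which encodes an inhibitor of thioredoxin that responds to glucose, was added, with 0.20 from stenosis and 0.56 from fasting (sum 0.76 ± 0.04).

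**Figure D4:**
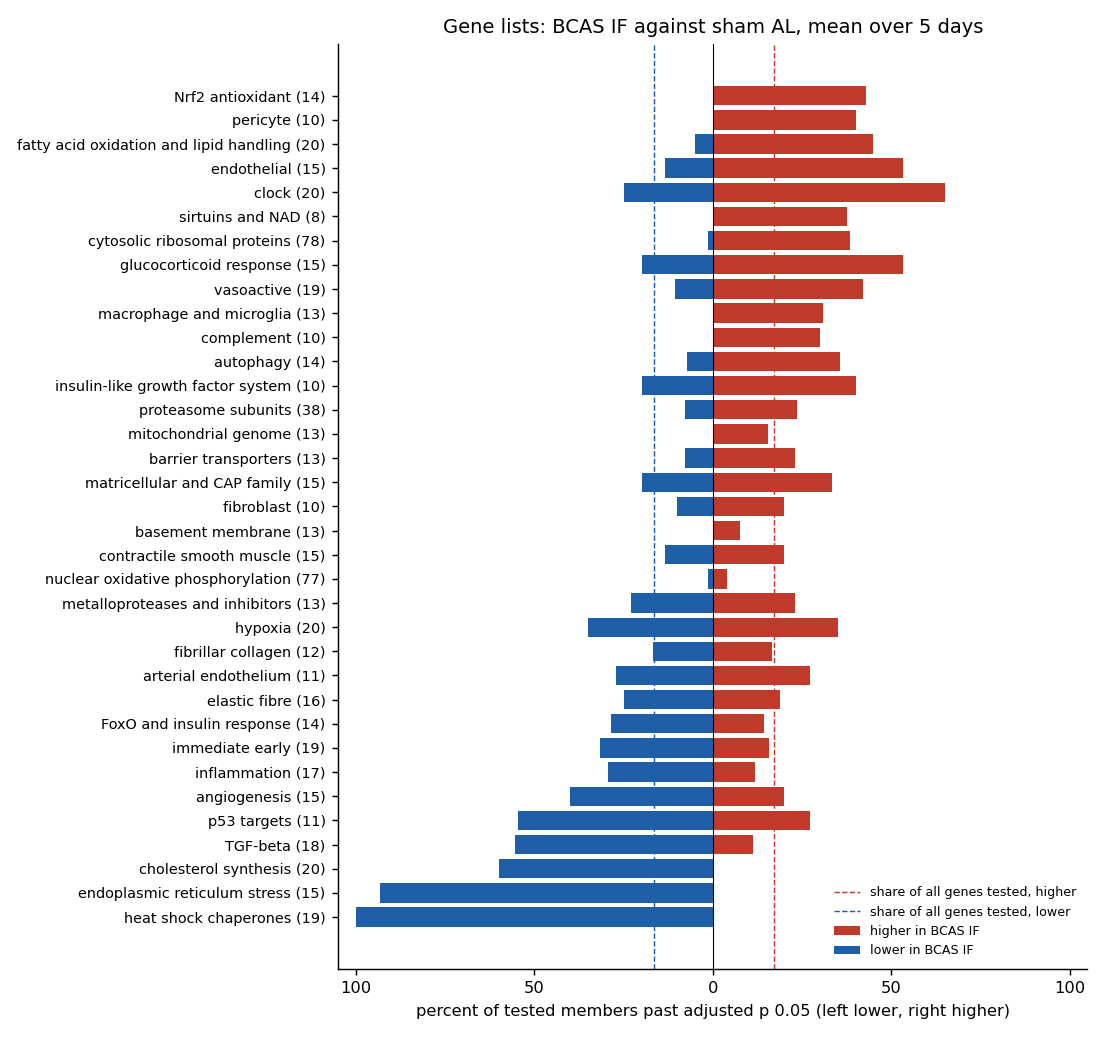
Bars give the percent of tested members of each list (number in brackets) that were higher (right) or lower (left) in BCAS IF than in sham AL at an adjusted p under 0.05, averaged over days, for 35 lists with at least 8 tested members (the neuron, oligodendrocyte and astrocyte marker lists are not drawn). Dashed lines mark the shares over all genes, 17.2% and 16.5%, and the heat shock list (19 of 19 lower) and the endoplasmic reticulum stress list (14 of 15 lower) reach farthest from them.

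Of 15 endothelial markers, 8 were higher in BCAS IF and 2 lower (median 0.13), where 17.2% and 16.5% of all genes were. With stenosis 7 rose, none fell and 8 did not pass (median 0.1), where 2.37% of all genes rose. With fasting 1 rose and 3 fell, where 18.8% and 19.3% of all genes did. Pecam1, an adhesion molecule gene of the endothelial junction, ran from 39.8 to 78.2 FPKM in sham AL and from 44.0 to 92.1 FPKM in BCAS IF (0.28 ± 0.06, adjusted p = 0.000185). Egfl7 (0.27 ± 0.06), Vwf (0.24 ± 0.05), Robo4 (0.22 ± 0.05) and Cldn5 (0.20 ± 0.07) rose as well, and the VEGF receptor genes Kdr (-0.34 ± 0.08) and Flt1 (-0.15 ± 0.05) fell. The mean level of the 15 markers overlapped, at 4.57 to 5.02 in sham AL and 4.67 to 5.12 in BCAS IF on the log2(FPKM + 1) scale, and no marker was at 0. The part of these markers in the stenosis effects of the opposed endothelial genes was not tested.

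Of 11 arterial endothelial genes, 4 rose with stenosis and none fell with it, where 2.37% and 1.17% of all genes did. With fasting 2 rose and 6 fell, where 18.8% and 19.3% of all genes did. In BCAS IF against sham AL 3 rose and 3 fell, where 17.2% and 16.5% of all genes did. Without day 7, and likewise without the libraries rich in short genes, 1 rose and 3 fell. Opposed were 3 of the 11, and none without day 7. The rises were those of the kinase gene Bmx (0.29 ± 0.06), the connexin gene Gja4 (0.22 ± 0.08) and Sox17 (0.15 ± 0.06). The falls were those of the connexin gene Gja5 (-0.26 ± 0.07), the Notch target gene Hey1 (-0.24 ± 0.06) and the ephrin gene Efnb2 (-0.20 ± 0.04). Of 15 angiogenesis genes 3 rose (Pgf, Esm1 and Angpt2) and 6 fell, among them Vegfa (-0.22 ± 0.05) and Aplnr, the apelin receptor gene (-0.38 ± 0.08). Angpt2 (0.17 ± 0.04), which encodes a ligand of the Tek receptor, had a stenosis effect of 0.22 that fasting did not offset (-0.04, adjusted p = 0.243).

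Of 18 TGF-beta genes 10 fell and 2 rose, and without day 7, 6 fell and 2 rose. By day, 7 fell on day 7, 6 on day 30, 2 on day 21, 1 on day 1 and 0 on day 14. Of all genes 8.64%, 5.93%, 1.03%, 1.84% and 2.9% fell on these days, in that order. Rises were 2 on day 1 and 1 each on days 7 and 30. The ligand genes differed in direction, with Tgfb3 lower by -0.55 ± 0.07 and Tgfb2 by -0.18 ± 0.05, and Tgfb1 higher by 0.30 ± 0.05. Tgfb1 was added (0.13 and 0.17), as were the pathway inhibitors Skil (-0.14 and -0.15) and Smad7 (-0.15 and -0.11). None of the 18 TGF-beta genes was added without day 7. Among matricellular genes Pi15, another CAP family gene, rose by 0.55 ± 0.09 with a stenosis effect of 0.58 and a fasting effect of -0.03, and Spon2, a spondin gene, fell by 1.05 ± 0.07 with a fasting effect of -1.03. Of 15 contractile genes 3 rose (Des, Lmod1 and Smtn) and 2 fell (Kcnmb1 and Myocd), shares near the 17.2% and 16.5% over all genes. Without day 7, 1 rose and 2 fell. Acta2 did not pass (-0.11 ± 0.09). Of 19 vasoactive genes 8 rose and 2 fell. Kcnk3, a potassium channel gene (0.53 ± 0.08), and Ramp2, the gene of a subunit of the adrenomedullin receptor (0.40 ± 0.05), were added. The endothelin receptor gene Ednra was opposed (0.15 and -0.08, adjusted p = 0.000664 and 0.0273). Without day 7, 1 of the 19 vasoactive genes was added and none was opposed, and without day 1 none was opposed.

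Of 17 inflammation genes 2 rose, Il18 (0.27 ± 0.04) and Nfkbia (0.20 ± 0.07), and 5 fell, Cxcl1 (-0.58 ± 0.20), the selectin genes Sele (-0.44 ± 0.11) and Selp (-0.39 ± 0.12), Icam1 (-0.34 ± 0.10) and Il1b (-0.31 ± 0.07). The shares over all genes were 17.2% and 16.5%. With stenosis none of the 17 passed, where 3.54% of all genes did. Without day 7, 1 rose and 4 fell, and with limma-voom 4 rose and 5 fell. Ackr1, which encodes a chemokine-binding receptor of venules, had widely spread values. It ran from 6.62 to 175 FPKM in sham AL and from 4.02 to 33.1 FPKM in BCAS IF (-1.72 ± 0.34, adjusted p = 4.83e-05), and passed on day 14 alone. Lcn2, an acute-phase gene, ran from 1.31 to 228 FPKM in sham AL and fell by 1.26 ± 0.44 (adjusted p = 0.0201), a call lost without day 14 (adjusted p = 0.236).

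Outside these lists, Inmt, which encodes an amine methyltransferase, ran from 5.33 to 13.5 FPKM in sham AL and from 13.7 to 38.2 FPKM in BCAS IF. Tspan4, a tetraspanin gene, ran from 17.0 to 31.1 and from 37.1 to 71.4 FPKM. Neither overlapped, and they rose by 1.39 ± 0.08 and 1.14 ± 0.05. Tcap, which encodes a sarcomere protein, rose by 0.85 ± 0.12. In all 16 genes had no overlap between 20 and 20 libraries, 10 higher (0.0637%) and 6 lower (0.0382%). The higher ones not yet described were the detoxifying enzyme gene Ephx1 (130 to 170 against 178 to 216 FPKM) and the kinase gene Wnk2. The lower ones were Nfil3, Hsph1, Arntl, Dnaja1, Plat, the tissue plasminogen activator gene (41.3 to 62.0 against 27.3 to 40.2 FPKM), and Twsg1, a modulator of bone morphogenetic proteins. These 4, Ephx1, Wnk2, Plat and Twsg1, were named after their values were seen.

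The number of genes past the threshold varied by day. On day 1 it was 577 (3.67%), with 288 higher (1.83%) and 289 lower (1.84%), and with limma-voom 317 of 523 were higher. On day 7 it was 2920 (18.6%), with 1563 higher (9.95%) and 1357 lower (8.64%), but with no filter on low values 1816 of 4873 were higher. On day 14 it was 944 (6.01%), with 489 higher (3.11%) and 455 lower (2.9%). On day 21 it was 274 (1.74%), with 113 higher (0.719%) and 161 lower (1.03%). On day 30 it was 1726 (11.0%), with 795 higher (5.06%) and 931 lower (5.93%), and with each library centred on its median 937 of 1732 were higher, while with limma-voom 520 of 1505 were. A total of 32 genes (0.204%) passed on all 5 days, 19 higher (0.121%) and 13 lower (0.0828%). The single-day counts depended on single libraries. Day 7 fell to 1085 without the libraries rich in short genes, to 1671 without sham AL replicate 4 and to 1534 without BCAS IF replicate 2. Day 1 fell to 181 without sham AL replicate 1 and to 204 without BCAS IF replicate 1, day 14 to 516 without sham AL replicate 1, day 21 to 76 without sham AL replicate 4, and day 30 to 1041 without sham AL replicate 1 and 1060 without BCAS IF replicate 3.

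On day 1, Sdf2l1 fell by 1.12 ± 0.22, from 30.9, 31.2, 36.7 and 37.6 FPKM to 11.3, 15.2, 16.8 and 18 FPKM. The histone gene Hist2h3c2 (-1.11 ± 0.21) and Lypd2 (-0.99 ± 0.24) were the other leading falls, and Lypd2 lost its call in the fit of the 40 compared libraries alone (adjusted p = 0.056).

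On day 7, Dbp rose from 6.03, 9.45, 9.77 and 11.1 FPKM to 30.1, 30.4, 38.8 and 44.4 FPKM. Wisp2 rose from 6.30, 10.6, 14.4 and 16.8 FPKM to 22.5, 38.0, 42.3 and 47.8 FPKM. Neither overlapped. The largest falls rested on few libraries. The sham AL values of Lars2, a mitochondrial tRNA synthetase gene, were 11.7, 12.6, 41.7 and 66.0 FPKM, with the upper pair from the libraries rich in short genes, and the BCAS IF values were 2.67, 2.82, 3.18 and 3.45 FPKM. Those of Gm10800, a predicted gene, were 5.49, 5.73, 22.2 and 2850 FPKM in sham AL, with 2850 FPKM in replicate 4, and 0.474 to 4.35 FPKM in BCAS IF. Gm10800 did not pass with limma-voom on fragments (adjusted p = 0.142). Of 78 ribosomal protein genes 47 rose on day 7 and none on any other day. In the mean over days 30 rose and 1 fell, but 2 rose without day 7 and 14 without the libraries rich in short genes.

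On day 14, Ackr1 fell from 39.3, 47.9, 155 and 175 FPKM to 4.02, 7.03, 10 and 11.4 FPKM (-3.31 ± 0.75). Lcn2 fell from 18, 18, 176 and 228 FPKM to 3.52, 5.63, 6.53 and 8.24 FPKM (adjusted p = 0.0351), a call that 8 alternatives ended, limma-voom among them (adjusted p = 0.0896). On day 21, Nfil3 fell from 13.7, 14.8, 16.5 and 21.7 FPKM to 4.03, 4.26, 5.41 and 6.48 FPKM. On day 30, Hspa1b fell from 21.2, 44.5, 55.8 and 148 FPKM to 8.78, 9.30, 9.45 and 11.6 FPKM. On each of these days the named groups did not overlap.

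The F test of whether the difference varied between days passed for 220 genes (1.4%). Txnip had the smallest p. Its difference was 1.15 ± 0.10 on day 7 and 0.96 ± 0.10 on day 30, but 0.05 ± 0.10 on day 21, when the values were 76.4, 77.5, 79.6 and 85.8 FPKM in sham AL and 72.4, 78.6, 90.0 and 90.4 FPKM in BCAS IF. Lox, the gene of an enzyme that cross-links collagen and elastin, did not pass on day 1 (0.16 ± 0.13) and fell by 1.05 ± 0.13 on day 30. Its day 30 values were 33.8, 34.6, 36.1 and 37.9 FPKM in sham AL and 13.8, 15.8, 18.4 and 19.2 FPKM in BCAS IF.

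Thbs1, which encodes the matricellular protein thrombospondin 1, went from 0.37 ± 0.20 on day 1, which did not pass, to -1.60 ± 0.20 on day 30. On day 30 it stood at 83.9, 85.8, 96.6 and 106 FPKM in sham AL and 20.4, 25.5, 36.9 and 42.1 FPKM in BCAS IF. Picalm, an endocytosis adaptor gene, went from 0.16 ± 0.06 to -0.44 ± 0.06, and only the later value passed. The number of such genes depended on the day 1 libraries, with 13 left without that day and 52 without BCAS IF day 1 replicate 1, while it was 1012 without sham AL day 7 replicate 1.

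**Figure D5:**
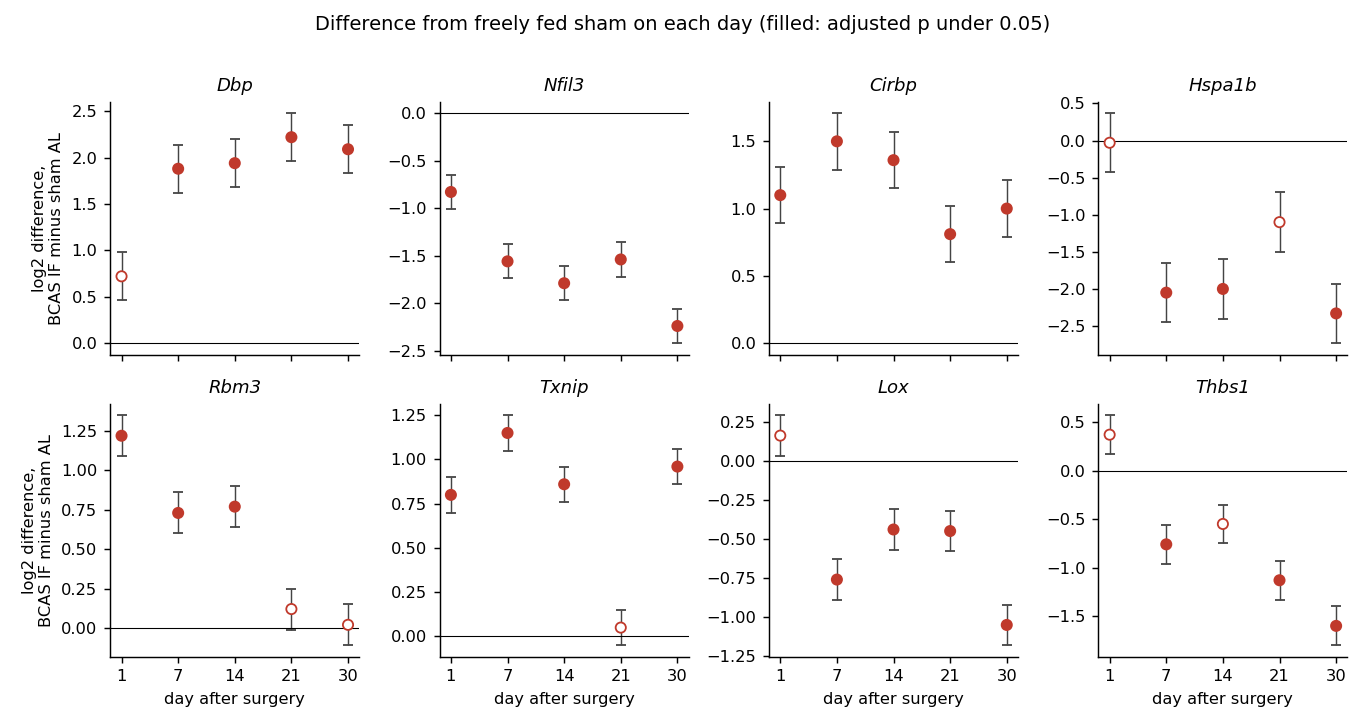
Points are the log2 difference of BCAS IF minus sham AL on each day ± SE (4 against 4 libraries), filled where the adjusted p was under 0.05, and each panel has its own y axis. Nfil3 and Cirbp are filled on all 5 days, Rbm3 is near 0 on days 21 and 30, Txnip is near 0 on day 21, and Lox and Thbs1 lie above 0 on day 1 and below 0 after it.

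The interaction passed for Myc and Thra. Myc, a growth-related transcription factor gene, had medians of 2.37 FPKM in sham AL, 1.78 FPKM in sham IF, 1.87 FPKM in BCAS AL and 2.42 FPKM in BCAS IF. Fasting after sham surgery gave -0.22 (adjusted p = 0.00263) and stenosis under free feeding -0.17 (adjusted p = 0.186), while BCAS IF minus sham AL was 0.03 ± 0.06 (adjusted p = 0.681). The interaction was 0.42 ± 0.08 (adjusted p = 0.0274). Thra, the gene of thyroid hormone receptor alpha, had medians of 31.0, 28.3, 34.7 and 25.3 FPKM in the same order. Its interaction was -0.26 ± 0.05 (adjusted p = 0.0274), and its level was lower in BCAS IF than in sham AL by 0.25 ± 0.04. The call of Myc was lost in 12 alternatives and that of Thra in 15, among them no filter on low values (adjusted p = 0.0664 for both) and leaving out day 7 (adjusted p = 1.0 for both).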

How the data were processed

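RNA was extracted with RNeasy columns, and libraries were made from 2 ug of total RNA, per the labels' protocols. The authors deposited 1 table of FPKM values for 54532 genes and 78 libraries. The aligner, counting and strand setting are not stated in the sources. DESeq 1.10.1 appears in the submitters' processing notes without a stated role. Coordinates in the table are those of GRCm38, shared with GENCODE M21 for 98.3% of matched identifiers. The FPKM values of each gene were whole multiples of 1 fragment (100.0% at a tolerance of 0.05), which gave the depth of each library and the fragments for limma-voom. The total that scaled FPKM was 0.938 to 1.119 times that depth, so FPKM carried a further factor for each library.

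limma 3.58.1 (R 4.3.3, statmod 1.5.0, trend and robust options) was fitted to log2(FPKM + 1) with 1 mean for each of the 20 groups over all 78 libraries. A gene was tested where 3 or more libraries reached 1 FPKM (15707 genes), with Benjamini-Hochberg adjustment over all of them and a threshold of 0.05. The interaction was the stenosis effect under fasting minus that under free feeding. Python 3.11.15 with pandas 2.3.3, numpy 2.4.6 and matplotlib 3.10.9 made the summaries and plots, and the fit was tested on simulated data.

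The members and gene lists were chosen with earlier results of these data known. Named genes were protein-coding. They were the 10 largest rises and falls of the mean with 1 sign on all 5 days, the 3 largest on each day without overlap, up to 8 added and 8 opposed genes of each direction by the smaller effect, up to 6 opposed genes that returned, the 5 smallest p of the interaction and of the test between days, the 4 smallest p of each list, and a fixed panel. Not every gene that met this is reported here, and further list members were named after their values were seen. Alternatives were other pseudocounts, filters, scalings and limma options, limma-voom, the 40 compared libraries alone, marker scores as covariates, and leaving out libraries or days.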

Additional observations from a re-analysis of the deposited data

Results flagged for a closer look

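In 240 groups of 4 libraries, 16 (6.67%) had 1 library far from the other 3, and chance flags about 1 in 20 groups.

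In sham AL, day 1 replicate 2 had 28.3 FPKM of Thbs1 where the others had 44.2 to 46.7, and day 7 replicate 4 had 10.3 FPKM of Ptp4a3 where the others had 15.7 to 16.8. Day 14 replicate 2 stood above the others for 3 genes, with 86.7 FPKM of Crispld2 (others 67.9 to 70.5), 85.3 FPKM of Col4a1 (others 64.9 to 67.2) and 35.9 FPKM of Lox (others 25.9 to 26.8). Day 21 replicate 4 had 56.5 FPKM of Hspa1b (others 14.7 to 19.1) and a mean heat shock level of 6.06 on the log2(FPKM + 1) scale (others 4.99 to 5.16). The mean red blood cell marker level of day 21 replicate 1 was 5.89 (others 3.54 to 3.8).

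In BCAS IF, day 1 replicate 1 stood apart for Adamts1 at 37.1 FPKM (others 17.2 to 20.5), Cd93 at 13.3 FPKM (others 10.4 to 10.6) and Fabp3 at 17.6 FPKM (others 22.1 to 22.9). The heat shock level of day 7 replicate 2 was 4.03 (others 4.21 to 4.24), and the red blood cell level of day 21 replicate 4 was 7.57 (others 2.9 to 3.38). On day 30, replicate 2 had 0.0335 FPKM of 2210407C18Rik (others 0.413 to 0.449), replicate 3 had 16.5 FPKM of Adamts1 (others 30.5 to 32.4), and replicate 1 had a clock output level of 2.46 (others 3.38 to 3.46).

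Between days, the BCAS IF minus sham AL difference varied for Txnip (adjusted p = 1.71e-05, limma F test), Rbm3 (0.000351), Lox and Thbs1 (0.000429 each) and Picalm (0.000461). Between diets, the effect of stenosis differed for Myc by 0.42 and for Thra by -0.26 on the log2 scale (adjusted p = 0.0274 for both).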

How the results depend on the processing

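No paired analysis was possible because the labels give the groups no shared replicate numbers. Of 168 counts under other settings, 134 stayed within 1.5 times the reported one. The cause of the others was not tested.

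With limma-voom the returned genes were 1423 and the interaction 1, and rises were 317 of 523 calls on day 1 and 520 of 1505 on day 30. With no filter day 7 gave 4873 (1816 higher), the test between days 99, opposed 35, opposed and returned 26, and interaction 0. The 40 compared libraries alone gave 276 on day 1, 151 on day 21 and 28 between days. Without day 1, between days gave 13, added 422, opposed 38, returned 1336, opposed and returned 25, and interaction 0. Without day 14 these were 415 between days, 23 opposed, 17 opposed and returned, and 4 by interaction. Without day 21 the interaction gave 0. Without day 30 there were 142 between days, 320 by stenosis, 111 added and 0 by interaction. Without day 7 there were 119, 282, 84 and 0 in that order, and 31 opposed and returned. Without the libraries rich in short genes day 7 gave 1085. A margin of 0.1 gave 154 returned genes, 13 of them opposed, and a margin of 0.3 gave 4137.

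Leaving out each library in turn gave 4869 to 5592 genes in the mean, 181 to 807 on day 1, 1534 to 3897 on day 7, 516 to 1118 on day 14, 76 to 348 on day 21 and 1041 to 1983 on day 30. The ranges were 52 to 1012 between days, 468 to 638 by stenosis, 5724 to 6252 by fasting, 210 to 284 added, 51 to 73 opposed, 2030 to 2374 returned, 40 to 58 opposed and returned, and 0 to 3 by interaction. Further libraries that moved a count by over 1.5 times were, on day 1, BCAS IF replicates 2 (371) and 4 (341) and sham AL replicate 4 (294), and on day 21, BCAS IF replicates 1 (149) and 4 (140). Between days they were BCAS IF day 1 replicates 2 (93) and 4 (76), day 7 replicate 2 (118) and day 30 replicate 3 (134). In sham AL they were replicates 1 (90) and 4 (70) of day 1, day 7 replicate 3 (381), day 21 replicate 4 (341) and day 30 replicates 1 (118) and 3 (128). The interaction count fell to 0 without BCAS AL day 21 replicate 2, BCAS IF day 1 replicate 2 or day 30 replicate 3, or sham IF day 1 replicate 2, day 7 replicate 3 or day 14 replicate 3, and to 1 without BCAS AL day 1 replicate 3, day 7 replicate 2 or 4, or BCAS IF day 21 replicate 2. Of 318 gene values, 227 passed under all alternatives run for them. Depth limits what the low genes can show.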
